A study of Saccharomyces cerevisiae with 24 samples.

Results

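UBC4 (YBR082C) and UBC5 (YDR059C) are a pair of duplicated budding yeast genes for ubiquitin-conjugating (E2) enzymes. An E2 enzyme takes activated ubiquitin from the E1 enzyme and, with an E3 ligase, passes it to a target protein. Ubc4 and Ubc5 are known for overlapping roles in the turnover of short-lived and abnormal proteins. Each gene carries an intron a short way into its coding region, so the intron must be removed for the enzyme to be made. The genes were taken by name, and the pair was chosen by the SMIT fraction spliced that it showed in deletion strains, so those values are given as a description without a test. Both genes passed the filters on low SMIT reads. They are 2 of the 59 genes measured by SMIT and 2 of the 284 genes in the long-read table.

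Nascent RNA was taken from the chromatin of cells grown in rich medium (YPAD) at 30 C, and poly(A) RNA was depleted. SMIT (Single Molecule Intron Tracking) ligates an adapter to the RNA 3' end, which marks the position of RNA polymerase II, and amplifies single genes from a forward primer. Each read then tells whether the upstream intron was still present, and the share without intron at a position is the fraction spliced. SMIT covered 7 MATa strains (his3Δ1 leu2Δ0 met15Δ0 ura3Δ0) in 2 libraries each, the wild type (WT) and strains in which KanMX replaced NPL3, GBP2, RTT103, THO2, PUB1 or HTZ1. Npl3 and Gbp2 are SR-like mRNA-binding proteins, Rtt103 binds the polymerase tail at termination, Tho2 belongs to the THO complex of mRNP assembly, Pub1 binds poly(U) and Htz1 is a histone variant. SMIT was also run once per time point at 0, 10 and 30 min of rapamycin (1 ug per ml) in anchor-away strains, called Nab2-AA and Control-AA. Each carries tor1-1, an fpr1 deletion (fpr1Δ::loxP-LEU2-LoxP) and RPL13A-2xFKBP12::LoxP-TRP1-LoxP, and the drug ties an FRB-tagged protein to the tagged ribosomal protein and so draws it out of the nucleus. Nab2-AA is MATalpha with NAB2-FRB::HIS, where Nab2 is known to bind poly(A) tails in the nucleus. Control-AA is MATa and lacks the tag, so mating type and tag cannot be told apart. Nanopore long reads, which can span start, intron and 3' end of 1 molecule, came from both anchor-away strains at 10 min in 2 libraries each.

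SMIT libraries held 699678 to 2839057 reads downstream of 3' splice sites among deletion strains and wild type, and 1263469 to 1640980 over the time course. Long-read libraries held 10096 to 32512 alignments. Replicate number was partly tied to the prefix of the sample names, because replicate 2 of all 7 strains shared 1 prefix while replicate 1 had 3. Wild-type replicate 1 was alone in its prefix, so in replicate 1 a difference from the wild type and a difference between prefixes cannot be told apart. The labels do not say that replicates came from separate cultures. The deleted genes and NAB2 were not among the genes of the SMIT files, so the strain labels were not checked against them.

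In the reference gene table (R64), UBC4 spans chromosome II 406628 to 407169 on the minus strand, and gaps in 96 long reads placed its intron at 407028 to 407122 (95 nt). The UBC4 intron thus follows the first 47 nt of the coding region and precedes the last 400 nt. UBC5 spans chromosome IV 569234 to 569770 on the minus strand, and its intron, taken from 1 spliced long read, lies at 569636 to 569723 (88 nt). The UBC5 intron likewise follows 47 nt of coding sequence and precedes 402 nt. Downstream of each gene lies a pair of tRNA genes on the other strand, 597 to 750 nt past the coding end of UBC4 and 199 to 352 nt past that of UBC5. The next gene on the minus strand is SPT7, a SAGA complex subunit, 1377 nt past UBC4, and TGL2, a lipase, 531 nt past UBC5. The paralogs are close copies, and how the authors' counting kept their SMIT reads apart is not given in the sources used here.

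In every deletion strain but npl3, both libraries had a higher UBC4 fraction spliced than both wild-type libraries. The fraction was averaged over 30-nt bins of 3' end position that held at least 10 reads in all 14 libraries, 19 bins for UBC4. In the wild type it was 0.493 in replicate 1 and 0.542 in replicate 2, a mean of 0.517 ± 0.0350 (SD, n = 2). In pub1 it was 0.924 and 0.788, the highest mean of the 6 strains at 0.856 ± 0.0960 (SD, n = 2). Both pub1 libraries stood far above the wild-type pair. In tho2 UBC4 had 0.919 and 0.749, and in htz1 0.814 and 0.648. In rtt103 it had 0.792 and 0.699, and in gbp2 0.768 and 0.677. These strains therefore lay above the wild-type range in both replicates, with differences of the means from 0.205 in gbp2 to 0.339 in pub1. In npl3 the libraries parted, with 0.450 below the wild type and 0.743 above it.

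Of the 48 genes measured, the share with both libraries above the wild-type pair was 29.2% in tho2, 12.5% in pub1 and npl3, 10.4% in rtt103 and 6.25% in gbp2 and htz1. The share with both libraries below it was 18.8% in gbp2, 10.4% in npl3 and rtt103, 8.33% in htz1, 6.25% in tho2 and 2.08% in pub1, and neither UBC4 nor UBC5 was below in any strain. These shares are for comparison with the UBC4 and UBC5 counts, and nothing is read from them because the choice of genes rests on this contrast. The UBC4 difference was the highest of the 48 genes in every strain but npl3 and the third highest in npl3, while the median gene differed from the wild type by between -0.0279 in npl3 and 0.0217 in tho2. All 6 strains were compared with the same wild-type libraries, so they share any deviation of that pair.

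UBC5 was higher than the wild type in both libraries in tho2 and pub1 only. Its fraction, over 16 bins, was 0.583 and 0.524 in the wild type, a mean of 0.554 ± 0.0417 (SD, n = 2). In tho2 it was 0.617 and 0.776, and in pub1 0.609 and 0.746. In both of these strains replicate 1 stood only just above the wild-type pair and replicate 2 well above it. In htz1 UBC5 had 0.577 and 0.688, in gbp2 0.513 and 0.679, in rtt103 0.483 and 0.661, and in npl3 0.467 and 0.711. In each of these 4 strains replicate 1 lay within or below the wild-type range and replicate 2 above it. The differences of the means ran from 0.0184 in rtt103 to 0.143 in tho2.

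**Figure D1:**
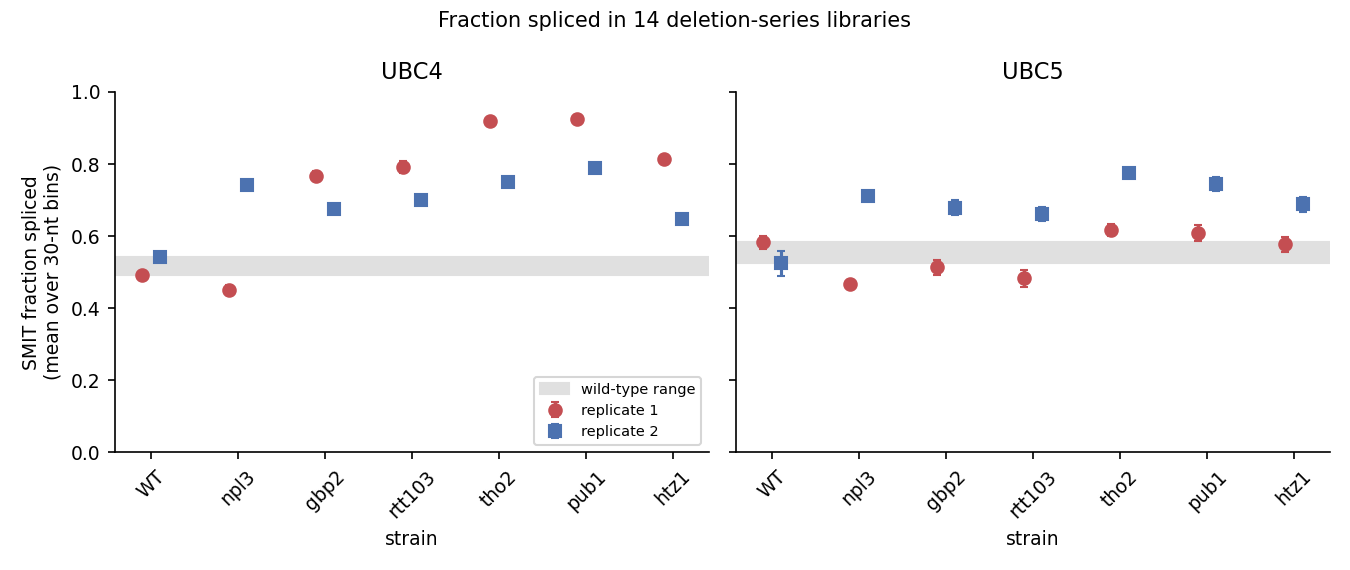
SMIT fraction spliced of UBC4 and UBC5 in the wild type and 6 deletion strains, each point 1 library with its 95% counting interval, and the grey band the range of the 2 wild-type libraries. For UBC4 the replicate 1 points of 5 strains lie above those of replicate 2, up to 0.924 in pub1, whereas for UBC5 the replicate 2 points lie above in all 6 strains.

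The level of the paralogs was close in replicate 2 and parted in replicate 1. Within replicate 2, where all samples share a name prefix, both genes were above the wild type in all 6 strains. The UBC4 difference from wild-type replicate 2 ran there from 0.106 in htz1 to 0.247 in pub1, and that of UBC5 from 0.137 in rtt103 to 0.252 in tho2. All of these differences were taken from the same wild-type library, so they share any deviation of that library. The share of the other genes above it was not counted, so nothing is read from this count of strains. UBC4 minus UBC5 stayed between -0.0397 and 0.0430 in the 6 strain libraries of replicate 2. Within replicate 1, UBC4 exceeded UBC5 by 0.236 to 0.315 in 5 strains and differed from it by -0.0165 in npl3. In wild-type replicate 1 the order was the other way, with a difference of -0.0908. Across libraries, Pearson's r between the paralogs was 0.919 over the 7 libraries of replicate 2, 0.514 over the 7 of replicate 1 and 0.284 over all 14. Spearman's rho was 0.821, 0.714 and 0.0989 over the same sets, so the rank order was nearly as alike in replicate 1 as in replicate 2. This is a description in which each point pairs the genes of 1 library, and the replicate 1 libraries fall under 3 name prefixes.

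The amount of UBC4 recovered differed along with that split, except in npl3 replicate 1. In wild-type libraries UBC4 made up 2.11% and 1.95% of downstream reads. In deletion strains it made up 0.411% to 1.04% in replicate 1 and 1.53% to 3.60% in replicate 2. UBC4 was thus scarcer in every replicate 1 strain library than in either wild-type library. UBC5 made up 0.229% to 0.832% in strain replicate 1 and 0.216% to 0.844% in strain replicate 2, against 0.199% and 0.173% in the wild type. The ratio of UBC4 to UBC5 reads was 10.6 and 11.3 in the wild type, 0.873 to 3.27 in replicate 1 strains and 3.52 to 11.8 in replicate 2 strains. The lowest ratio, 0.873, belonged to npl3 replicate 1, where UBC4 made up 0.727% of reads and the paralogs differed by only -0.0165. The part of these differences in the fraction spliced was not tested. SMIT reads come from PCR with gene-specific primers, so these shares are not transcript levels, and counting intervals cover counting error only.

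**Figure D2:**
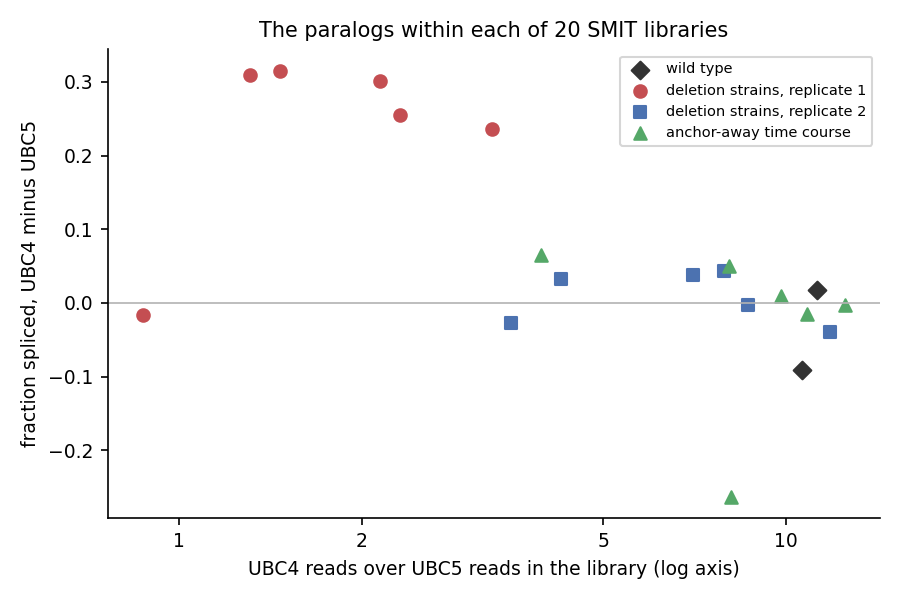
Each point is 1 of 20 SMIT libraries, with the ratio of UBC4 to UBC5 reads on a log axis and the difference in fraction spliced (UBC4 minus UBC5) on the vertical axis. The 5 libraries with differences of 0.236 to 0.315 are replicate 1 deletion libraries with ratios of 1.31 to 3.27. The library with the lowest ratio, npl3 replicate 1 at 0.873, lies at -0.0165, and the lowest point, -0.263, is Control-AA at 10 min.

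The authors' deposited table of SMIT differences, whose scale is not stated, gives scores per replicate. In its replicate 1 part UBC4 scored from 0.101 in npl3 to 1.36 in pub1, and UBC5 from -0.446 in rtt103 to 0.331 in tho2. In the replicate 2 part of the authors' deposited table UBC4 scored from 0.267 in htz1 to 0.568 in pub1, and UBC5 from -0.167 in htz1 to 1.05 in pub1. UBC4 was positive in all 12 of these strain comparisons and UBC5 in 6. The median listed gene scored from -0.180 in npl3 to 0.299 in tho2 in replicate 1. In replicate 2 that median ran from -0.102 in htz1 to 0.191 in tho2, so positive scores were also common among the other genes. In replicate 2 the authors' deposited table has UBC5 below 0 in htz1 and rtt103, where the position-averaged fraction was above the wild type. For UBC4 in npl3 replicate 1 the signs also differ, with a score of 0.101 and a position-averaged difference of -0.0421 from wild-type replicate 1.

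Along the gene, the SMIT fraction spliced was mostly higher far past the 3' splice site than near it, though it did not rise at every bin. Averaged over the last 5 bins it exceeded the first 5 bins in 20 of 20 libraries for UBC4 and in 18 of 20 for UBC5. The first bin, 1 to 30 nt past the splice site, held a UBC4 fraction of 0.111 in wild-type replicate 1 and 0.305 in replicate 2. In pub1 the same bin held 0.841 and 0.453, and in tho2 0.828 and 0.559. Higher first-bin values than the wild-type pair were not particular to pub1 and tho2. Both libraries also exceeded it for npl3 (0.548, 0.512), gbp2 (0.503, 0.372) and rtt103 (0.690, 0.342). For htz1 this held for replicate 1 (0.554), while replicate 2 (0.274) lay between the wild-type values. The pub1 replicate 1 value rests on 138 reads. Bin by bin, both libraries exceeded both wild-type libraries in all 19 UBC4 bins in rtt103, tho2 and pub1, in 18 in gbp2, in 16 in htz1 and in 2 in npl3. For UBC5 this held in 10 of 16 bins in tho2, 9 in pub1, 6 in htz1, 3 in gbp2, 3 in rtt103 and 1 in npl3, and both libraries were below both wild-type libraries in 4 bins in rtt103 and 1 in htz1. Over the 863 bins of all 48 genes, the share above was 27.2% in tho2, 16% in pub1, 12.3% in rtt103, 10.7% in htz1, 10.5% in npl3 and 8.46% in gbp2, and the share below was 5.1% to 18.4%.

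**Figure D3:**
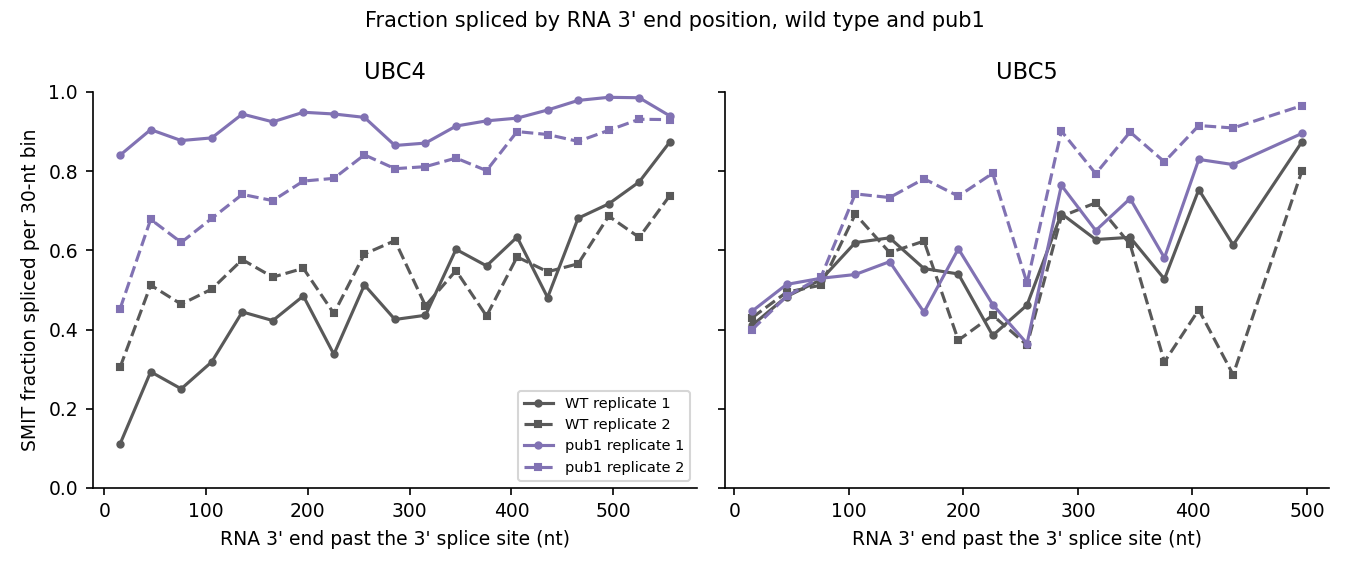
SMIT fraction spliced in 30-nt bins against the distance of the RNA 3' end past the 3' splice site in wild type and pub1 (solid, replicate 1; dashed, replicate 2). For UBC4 both pub1 curves lie above both wild-type curves in all 19 bins, and for UBC5 the curves share a step up between the bins at 241 to 270 nt and 271 to 300 nt.

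UBC5 had a step that was not seen in UBC4, at bins picked after their values were seen. From the bin at 241 to 270 nt to the bin at 271 to 300 nt its fraction was higher in 20 of 20 libraries, by 0.105 to 0.435 with a median of 0.223. The same bins of UBC4 differed by -0.0961 to 0.0514, higher in 5 of 20 libraries. In wild-type UBC5 the values were 0.462 and 0.693 in replicate 1 and 0.361 and 0.686 in replicate 2. The step lies inside the coding region, since 402 nt of UBC5 follow its intron.

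Past the coding end, the fraction spliced was higher than within it. Reads ending more than 400 nt past the 3' splice site had a pooled UBC4 fraction of 0.555 to 0.965 against 0.340 to 0.912 at 1 to 400 nt, higher in 20 of 20 libraries. For UBC5 it was 0.552 to 0.954 against 0.410 to 0.730, also higher in 20 of 20. At 541 to 570 nt, the last bin read well in all libraries, the UBC4 fraction was 0.707 to 0.992. From 571 nt on, the fraction was lower than in that bin in 18 of 20 libraries, on 6 to 592 reads. In wild-type replicate 1 it was 856 of 980 reads at 541 to 570 nt and 361 of 592 from 571 nt on. Few SMIT reads reached farther, and at most 0.286% of the UBC4 reads of a library ended beyond 600 nt. Upstream of the 3' splice site, 3 of 193214 UBC4 reads and 35 of 27242 UBC5 reads were counted as spliced.

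By the shape of their values over the 14 deletion-series libraries, the paralogs had different nearest genes. UBC4 was most like SAR1 (a GTPase of vesicle budding), GLC7 (a protein phosphatase) and EFB1 (a translation elongation factor subunit), with Pearson's r of 0.673, 0.671 and 0.656. GLC7 and EFB1 were nearly fully spliced, above 0.977 in all 14 libraries, and SAR1 ranged from 0.800 to 0.969. UBC5 was most like UBC9 (the E2 enzyme for SUMO), NYV1 (a vacuolar SNARE) and PRE3 (a proteasome subunit), with r of 0.887, 0.859 and 0.857. UBC4 ranked 42 of the genes set against UBC5, and UBC5 ranked 9 of those set against UBC4. The correlations are over 14 libraries that share strains and name prefixes and are given as a description.

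In the anchor-away time course, UBC5 was lower in Nab2-AA at 10 min and UBC4 was lowest in Control-AA at 10 min. In Nab2-AA the UBC5 fraction was 0.660 before the drug, then 0.496 after 10 min and 0.552 after 30 min. In Control-AA it had 0.708, 0.720 and 0.638. With 1 library per strain and time there is no replicate check and no test, and intervals cover counting error only. The UBC5 difference from 0 min at 10 min was -0.163 (95% counting interval -0.205 to -0.122) in Nab2-AA and 0.0121 (-0.0291 to 0.0534) in Control-AA. Of the 57 genes, 29.8% were lower by more than 0.1 in Nab2-AA after 10 min and 28.1% after 30 min, with UBC5 among them both times, and 1.75% and 5.26% were higher by more than 0.1. The UBC5 difference after 30 min, -0.108, did not hold under other settings: it was 0.000837 with pooled reads and -0.0346 both with 50 reads per bin and over positions 1 to 200 nt.

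UBC4 took another course. In Nab2-AA it had 0.644 before the drug, then 0.547 after 10 min and 0.616 after 30 min. Control-AA had 0.717, 0.457 and 0.635 at these times. The Control-AA library at 10 min was the low one, 0.260 below its 0 min value (95% counting interval of the difference -0.277 to -0.243). It was the only gene of 57 (1.75%) lower there by more than 0.1, and the median gene differed by -0.00153. UBC4 was lower in that library in all 19 bins, by up to 0.423 at 271 to 300 nt. The same library held 362 UBC4 reads beyond 400 nt, against 1112 to 1964 in the other 5 time-course libraries. At 30 min UBC4 was again the lowest-ranked of the 57 genes in Control-AA, with a difference of -0.0820, and 0% of genes were lower by more than 0.1. In Nab2-AA UBC4 differed from its starting value by -0.0973 after 10 min and by -0.0279 after 30 min. With reads pooled over positions these values were -0.0158 and 0.0791, and over positions 1 to 200 nt -0.0295 and 0.0529, so the direction after 30 min turned. There the first 5 bins were higher by 0.0450 and 0.128, and the last 5 bins differed by -0.0768 and -0.0445.

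**Figure D4:**
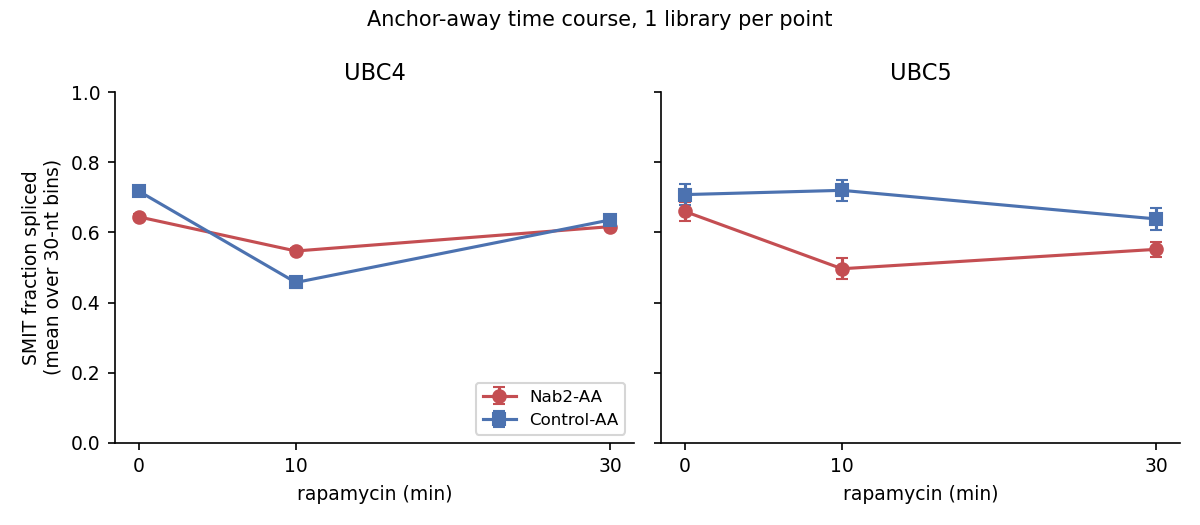
SMIT fraction spliced of UBC4 and UBC5 against minutes of rapamycin in Nab2-AA and Control-AA, 1 library per point with its 95% counting interval. UBC5 in Nab2-AA lies below Control-AA at 10 min (0.496 against 0.720), and for UBC4 the Control-AA point at 10 min (0.457) is the lowest.

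In the authors' deposited table the time-course scores of UBC4 were -0.978 in Nab2-AA and -0.523 in Control-AA at 10 min. Those of UBC5 in the authors' deposited table were -0.623 and -0.149, and the median listed gene scored -0.365 and -0.0657. That table thus put UBC4 lower in both strains at 10 min, with the larger value in Nab2-AA, where the position-averaged fraction gave the larger difference in Control-AA.

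The other genes of the ubiquitin system were compared from a list of 11, of which 6 were measured by SMIT. Besides UBC4 and UBC5 these were UBC9, UBC13 (an E2 for lysine-63 chains), RUB1 (a ubiquitin-like modifier) and PRE3. At 10 min in Nab2-AA 3 of the 6 were lower by more than 0.1, and at 30 min 4 of 6, beside 29.8% and 28.1% of all 57 genes, with list medians of -0.104 and -0.165 against -0.0493 and -0.0197 over all 57 genes. RUB1 was 0.800, 0.580 and 0.578 at the 3 times. UBC9 was 0.631, 0.519 and 0.330, and UBC13 0.644, 0.572 and 0.403. Both of these E2 genes were lowest at 30 min, whereas UBC4 and UBC5 were lowest at 10 min. In Control-AA 1 of the 6, UBC4, was lower by more than 0.1 at 10 min and 0 of 6 at 30 min.

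Long reads showed UBC4 mostly unspliced, and the difference between strains did not pass the test. In Control-AA 8 of 44 informative reads (18.2%, 95% Clopper-Pearson interval 8.19 to 32.7) and 15 of 67 (22.4%, 13.1 to 34.2) were spliced. In Nab2-AA it was 51 of 214 (23.8%, 18.3 to 30.1) and 22 of 56 (39.3%, 26.5 to 53.2). The means were 20.3% ± 2.97 in Control-AA and 31.6% ± 10.9 in Nab2-AA (SD, n = 2 each). The libraries did not overlap, but Nab2-AA replicate 1 lay only just above Control-AA replicate 2 and within its interval. The share of all introns whose libraries did not overlap was not counted, so nothing is read from this order. The log2 odds of splicing in Nab2-AA against Control-AA were 0.52 ± 0.43 (SE), with an adjusted p of 0.507 by edgeR's quasi-likelihood F test over 200 introns. In that test 8% of introns had lower and 0% higher odds of splicing in Nab2-AA, and the median log2 odds were -0.52. At an unadjusted p under 0.05 edgeR had 2 introns higher, and limma voom had 1 after adjustment. The authors' deposited table gives a UBC4 fraction of 0.182 and 0.219 for Control-AA, and of 0.253 and 0.435 for Nab2-AA. By the share spliced, UBC4 ranked 8 to 12 from the lowest among the 89 introns with at least 20 informative reads in every library, whose medians were 72.2% to 83.0%.

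Most UBC4 long reads ended far past the coding end, and spliced reads ended nearer than unspliced ones. A 3' end more than 250 nt past the coding end was found in 36 of 45 and 37 of 69 reads in Control-AA (80.0% and 53.6%), and in 176 of 220 and 44 of 58 reads (80.0% and 75.9%) in Nab2-AA. The replicates of Control-AA differed by more than the strains did. UBC4 ranked 2 to 3 from the highest of the 90 genes with at least 20 reads in every library, whose median share was 4.69% to 5.94% in Control-AA and 14.5% to 16.6% in Nab2-AA. Between strains the log2 odds of ending beyond were 1.07 ± 0.44 (SE) higher in Nab2-AA, with an adjusted p of 0.0813 by edgeR over 200 genes, of which 28% had higher and 0% lower odds (2 genes lower at an unadjusted p under 0.05). Without Control-AA replicate 2 the log2 odds were -0.0742, and with limma voom the adjusted p was 0.0306, so 1 library decides the direction, and the tool decides the call.

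The median 3' end of unspliced UBC4 reads lay 553 and 406 nt past the coding end in Control-AA and 560 and 537 nt in Nab2-AA. For spliced reads the medians were 227 and 172 nt in Control-AA and 386 and 472.5 nt in Nab2-AA. The spliced median was the lower in 4 of 4 libraries. Between 100 and 200 nt past the coding end lay 37.5% and 53.3% of the spliced reads of Control-AA, 33.3% and 27.3% of those of Nab2-AA, against 2.45% to 8.33% of unspliced reads over the 4 libraries. Seen the other way, of reads ending within 250 nt 44.4% and 32.3% were spliced in Control-AA, and 54.5% and 57.1% for Nab2-AA. Of those ending farther, 11.4% and 13.9% were spliced in Control-AA, and 15.9% and 33.3% for Nab2-AA. Reads of 1 library share their source, so these shares describe the libraries and carry no test.

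**Figure D5:**
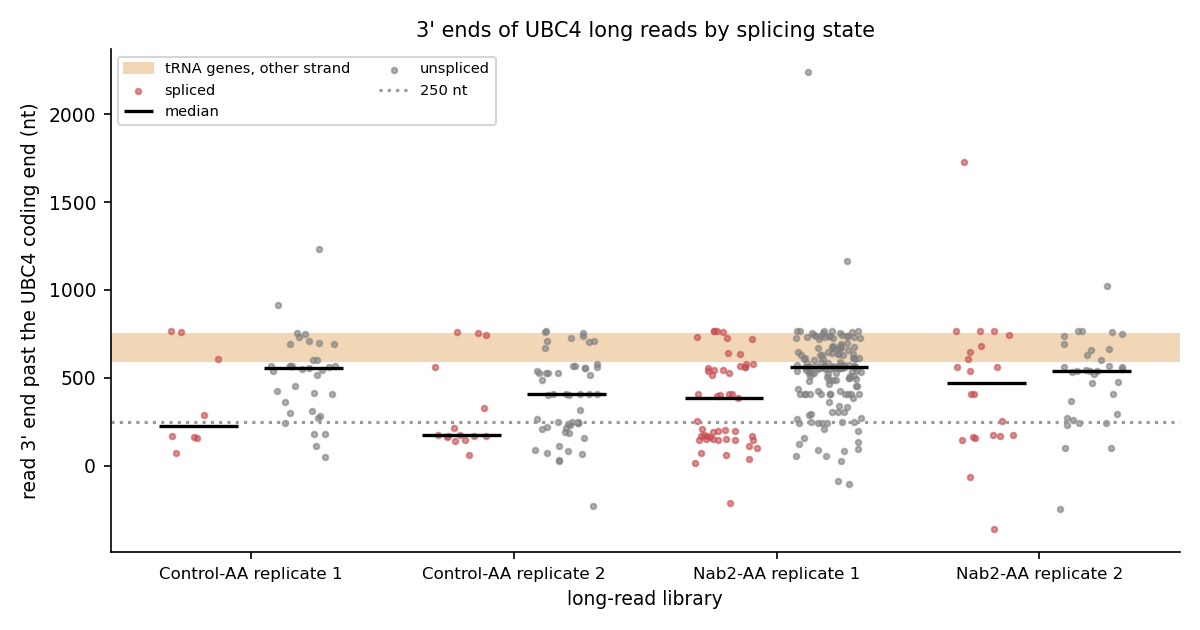
Distance of the 3' end past the UBC4 coding end for each spliced and unspliced long read, by library, with black bars for medians, a dotted line at 250 nt and bands for the tRNA genes of the other strand. Spliced medians (172 to 472.5 nt) lie below unspliced medians (406 to 560 nt) in each library, and few reads end more than 800 nt past the coding end.

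The assays looked at different stretches of UBC4. In long reads 69.6% to 84.5% of ends lay beyond 600 nt from the 3' splice site, where SMIT had almost no reads. Among long reads ending 1 to 570 nt past the splice site, as SMIT reads do, 4 of 6 and 7 of 16 reads were spliced in Control-AA, and 18 of 29 and 6 of 9 reads in Nab2-AA. Those shares, 43.8% to 66.7%, lay above the shares over all informative reads of the same library. SMIT at the same 10 min of rapamycin gave means over its bins of 0.457 in Control-AA and 0.547 in Nab2-AA. For SMIT reads ending more than 400 nt past the splice site the pooled fractions were 0.740 and 0.791. Long reads were not matched to SMIT reads by position within this stretch, so their shares cannot be set directly against either pair of values. The SMIT difference between strains, with 1 library a side, was not tested.

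Few UBC4 long reads ended more than 800 nt past the coding end. Ends 700 to 800 nt past the coding end made up 15.5% to 15.9% of reads in the 4 libraries. This window begins inside the farther tRNA gene, at 679 to 750 nt, and runs past it. Only 6 of 392 reads ended farther than 800 nt. Of these reads, 2 overlapped SPT7 by at least 50 nt, both in Nab2-AA. None of the 392 reads overlapped an upstream gene of the same strand, where 0 of 392 allows a share of up to 0.765%, so chimeric reads could not be tested for UBC4. Among the 78 genes with enough chimeric reads, 10.3% had higher and 0% lower odds of them in Nab2-AA by edgeR. UBC4 itself had 45 and 69 reads in Control-AA and 220 and 58 in Nab2-AA. Relative to the other genes its log2 fold was 0.27 ± 0.17 (SE, adjusted p = 0.314 by edgeR with TMM over 226 genes), where 8.41% of genes were lower and 6.64% higher in Nab2-AA.

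UBC5 was too scarce in long reads for any test. It had 4 reads on its strand in Nab2-AA replicate 1, 3 in Control-AA replicate 2 and 0 in the other libraries. Of the 6 reads that informed on the intron, 1 was spliced, in Control-AA replicate 2. The authors' deposited table gives a UBC5 fraction of 0.25 in that library and 0 in the other 3. All 392 UBC4 and all 7 UBC5 alignments had a mapping score of 60, the highest that minimap2 assigns.

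Of the ubiquitin list, 7 genes were tested for long-read splicing, and 0 of 7 passed in either direction at an adjusted p under 0.05 by edgeR, and 0 at an unadjusted one. For ends beyond the gene 1 of 7 passed, RPL40A, which encodes ubiquitin fused to a ribosomal protein and had log2 odds 1.07 ± 0.34 (SE) higher in Nab2-AA (adjusted p = 0.0309 by edgeR), beside 28% of all 200 genes. At an unadjusted p under 0.05 by edgeR it was 3 of 7, with UBC4 and PRE3, all higher in Nab2-AA. At that threshold 82 of all 200 genes were higher and 2 lower, so nothing is read from the list count. For reads per gene 0 of 7 passed by edgeR, adjusted or not.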

How the data were processed

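Per the labels and file headers, each SMIT file gives, for a gene and a 3' end position, the authors' read counts, a fraction spliced and a corrected fraction whose method is not stated. The authors' difference tables hold a deposited score of unstated scale, and the long-read table a deposited fraction. Long-read alignments are the authors' own; their mapping scores and coordinates were used as deposited. The submitters' processing notes list, with no role, minimap2 2.17, bedtools 2.29.2, SAMtools 1.9, cutadapt 1.9.1, HISAT2 2.1.0 and the build sacCer3. Whether PCR copies were removed is not given in the sources used here.

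SMIT fractions are means over 30-nt bins with at least 10 reads in every library of a series. Genes needed 20 reads in every library and positions to 200 nt. "Higher" in a deletion strain means both libraries above both wild-type libraries. Long-read introns were gaps of at least 40 nt seen in 5 reads (209 introns in 200 genes), except the UBC5 intron, which rests on 1 read and entered no test. A spliced read matched both ends within 10 nt, an unspliced read covered 90% of the intron. Tests needed 20 reads and 5 of each class, and used edgeR 4.0.16 (quasi-likelihood, strain by class interaction, Benjamini-Hochberg at 0.05), with the SE taken from the F statistic, and DESeq2 1.42.0 and limma 3.58.1 as alternatives in R 4.3.3. Scripts ran in Python 3.11.15 with SciPy 1.17.1, and the splicing fit was tested on simulated data. UBC4 and UBC5, the ubiquitin list and the named genes (the 3 most alike per paralog, and neighbours that reads cross) were chosen with earlier results of these data known, and windows of start and end positions after their values were seen. Replicates share only a number, with 2 per strain, and no exact test of 2 against 2 libraries can go below p = 0.333.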

Additional observations from a re-analysis of the deposited data

Results flagged for a closer look

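UBC5 differed between the anchor-away strains in the direction of its difference from 0 to 10 min of rapamycin, -0.163 in Nab2-AA and 0.0121 in Control-AA. Each value rests on 1 library, the Control-AA interval includes 0, and the Control-AA value was -0.0140 over positions 1 to 200 nt and -0.00933 with 50 reads per bin. In the authors' deposited table the scores were negative in both strains, -0.623 and -0.149, and the difference between strains was not tested.

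Reads on the strand opposite UBC4 entered no main comparison, only an alternative splicing count over both strands. They made up 9.84% (24 of 244) and 12.1% (8 of 66) of reads over the gene in Nab2-AA. In Control-AA they made up 0% (0 of 45) and 6.76% (5 of 74). Both Nab2-AA libraries were above both Control-AA libraries, which also held for 26.3% of the 95 genes with at least 20 reads of either strand in every library, while 8.42% of them had both Nab2-AA libraries below. Of these 37 reads, 27 carried a name that also aligned on the gene's own strand. Over whole libraries 5.96% to 6.24% of read names aligned on both strands.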

How the results depend on the processing

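Deletion-strain differences depended most on the replicate. With replicate 2 only, UBC4 differed from the wild type by 0.247 in pub1, 0.207 in tho2, 0.106 in htz1, 0.157 in rtt103 and 0.135 in gbp2, and with replicate 1 only (chosen after seeing the data, and with the wild type alone in its name prefix) by 0.432, 0.426, 0.321, 0.300 and 0.275. For UBC5 replicate 2 only gave 0.221 in pub1, 0.252 in tho2, 0.164 in htz1, 0.137 in rtt103, 0.155 in gbp2 and 0.187 in npl3, and replicate 1 only gave 0.0256, 0.0342, -0.00618, -0.100, -0.0701 and -0.116. Over positions 1 to 200 nt UBC5 had 0.0390 in pub1 and -0.00223 in htz1. Leaving out single wild-type or strain libraries gave UBC4 from -0.0668 to 0.226 in npl3 and from 0.131 to 0.407 in the others, and UBC5 from -0.0869 to 0.223 over the 6 strains. In the time course, pooled reads gave UBC4 -0.0158 (10 min) and 0.0791 (30 min) in Nab2-AA and -0.243 in Control-AA (10 min). Positions 1 to 200 nt gave -0.0295 and 0.0529 in Nab2-AA and -0.0977 in Control-AA at 30 min. The authors' corrected fraction gave -0.0422 in Nab2-AA at 30 min, and 50 reads per bin gave -0.287 in Control-AA at 10 min. For UBC5 in Nab2-AA pooled reads gave -0.108 at 10 min, and at 30 min 0.000837, a reversal, while 50 reads per bin gave -0.0346, the corrected fraction -0.148 and positions 1 to 200 nt -0.0346. The causes were not tested. For long reads, the UBC4 log2 odds of splicing ranged from 0.26 to 1.30 when each library was left out, with adjusted p from 0.314 to 0.866 over all settings. The replicate block gave 0.85 for splicing, 0.73 for ends beyond the gene and 0.23 for reads per gene and changed no UBC4 call. Same-numbered libraries deviated with r of -0.117 for splicing and -0.144 for chimeric reads. With crossed numbers as a block (chosen after seeing the data), 1 intron had lower odds of splicing and 8 genes higher odds of chimeric reads. Ends beyond the gene gave 1.04 with limma voom, past the threshold, and from -0.0742 to 1.71 when each library was left out. Reads per gene gave from -0.0453 to 0.44 likewise, reversed without Nab2-AA replicate 1. Over all introns, 16 had lower odds of splicing by edgeR, 2 by DESeq2, 17 by limma voom, 2 among reads ending within 250 nt and 0 to 4 when each library was left out. Over all genes, 56 had higher odds of ending beyond, 30 at 500 nt and 0 to 11 when each library was left out. Chimeric odds were higher in 8 genes by edgeR, 5 by DESeq2, 2 with the block, 2 without the filter and 0 to 5 when each library was left out. Reads per gene were higher in 15 by edgeR and 7 by DESeq2. The UBC4 share spliced differed by 11.3 percentage points, and by 10.4 to 17.5 over the other ways of counting, 3 of them chosen after seeing the data, and 14.4 in the authors' deposited table. UBC5 could not be fitted.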

Other observations

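UBC4 long reads began at preferred positions. Starts 26 nt (62 reads), 65 nt (51 reads) and 77 nt (37 reads) before the start codon were the most frequent. Starts at most 35 nt before it made up 36.2% to 37.8% of reads in the 4 libraries, and starts 50 to 110 nt before it 44.4% to 55.1%. The near starts were spliced in 8 of 81 and 10 of 21 informative reads for Nab2-AA and 4 of 17 and 3 of 25 for Control-AA. The far starts were spliced in 36 of 107 and 10 of 27 reads for Nab2-AA and 3 of 20 and 10 of 37 for Control-AA. The order of the start classes thus differed between libraries. The single most frequent 3' end lay 406 nt past the coding end, in 23 of 392 reads (14, 3, 1 and 5 by library).

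Over UBC5, 13 of 20 long reads lay on the opposite strand, against 37 of 429 over UBC4. None of the 13 shared a name with a read on the UBC5 strand, and 6 of them overlapped MAK21, the neighbouring gene for a ribosome assembly factor on that strand, by at least 50 nt. These reads numbered 5 and 4 by replicate for Nab2-AA, with 2 and 2 for Control-AA.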
